A study of Mus musculus with 10 samples.

Results

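The 38 genes described here are known from neutrophils, other granulocytes and mast cells. They were chosen by name, as granule, surface, maturation and signalling genes of these cells, with earlier results of these data known. All 38 were found among the 55359 genes of the deposited table. Gene expression had been measured by RNA sequencing of whole orthotopic pancreatic tumors, to compare tumors of hyperglycemic mice with those of normoglycemic mice. The titles of the samples call the tumors PDX, but their source is given as KPC K8484 cells, a luciferase-expressing murine pancreatic cancer line, which were implanted in the pancreas of immunocompetent C57BL/6 J mice aged 10 weeks. In the CTRL group, 5 mice drank regular water. In the D30 group, 5 mice drank water with 30% dextrose for 14 days. No chemotherapy was given to either group. All tumors came from this 1 cell line, so the spread between tumors is a spread between hosts and grafts and not between cancers of independent origin.

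The tumors are named by their column in the table, N1, N2, N4, N5 and N6 for CTRL and T1, T2, T4, T5 and T7 for D30, because no column could be tied to a single animal. Lists of values below follow this order. The deposited values are normalized counts, that is, reads per gene divided by 1 size factor per tumor. The reads behind them numbered 29915331 to 42122304 per CTRL tumor and 29192261 to 37126175 per D30 tumor. Several tumors stood apart in genes outside the 38. T5 had the fewest genes with a read (20482) and a summed level of 5 erythroid genes of 187883 normalized counts, against 4124 to 12386 in the other tumors. T4 held 841 reads of Y-linked genes, where the other tumors held 0, and the highest level of Plac8, a gene of the monocyte list (73559 normalized counts against 9845 to 22144). The study's methods state that male and female mice were used in equal numbers. Apart from the Y-linked reads, the sex of the host of each tumor was not known here. With such reads in T4 alone, host sex could not be told apart from other traits of T4. Its part in the levels was not tested. For many of the 38 genes, results are therefore also given without T4 and T5.

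Neutrophils mature in the bone marrow in steps that are marked by their granules. Primary granules with myeloperoxidase and serine proteases are made in promyelocytes, secondary and tertiary granules with lactoferrin, lipocalin and gelatinase are made later, and mature cells carry receptors for formyl peptides, glycolipids and cytokines. The growth factors G-CSF and GM-CSF, which tumor and stromal cells can secrete, drive the output and the survival of these cells, and the transcription factors C/EBPε, GFI1 and PU.1 direct their maturation. Mast cells are tissue-resident cells of a separate lineage that depend on KIT and store chymase and carboxypeptidase. Several of the genes are not particular to granulocytes, since Lcn2, Ltf and Il1rn are also made by epithelial cells and Wfdc17, Il1rn, Acod1 and Slfn4 by macrophages. In whole tumors, more cells of a type and more RNA per cell cannot be told apart.

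Promoter windows of 5 genes are printed because the results below turn on them. Slfn4 was the gene called between the groups, S100a8 and S100a9 varied together across tumors, Ngp was among the granule genes that were highest in D30 tumor T2, and Clec4e had the smallest p value among the surface genes. Each window runs from 250 bases before to 50 bases after the RefSeq start of the gene, 5′ to 3′ on the strand of the gene, in the build GRCm38.p6. Capitals mark matches on either strand to the C/EBP motif TTGCNNAA or to the PU.1 motif GAGGAA. The Slfn4 window lies at chr11:83174936-83175235 on the plus strand, S100a8 at chr3:90668821-90669120 on the plus strand and S100a9 at chr3:90695672-90695971 on the minus strand. The Ngp window lies at chr9:110419558-110419857 on the plus strand and that of Clec4e at chr6:123289822-123290121 on the minus strand.
Slfn4: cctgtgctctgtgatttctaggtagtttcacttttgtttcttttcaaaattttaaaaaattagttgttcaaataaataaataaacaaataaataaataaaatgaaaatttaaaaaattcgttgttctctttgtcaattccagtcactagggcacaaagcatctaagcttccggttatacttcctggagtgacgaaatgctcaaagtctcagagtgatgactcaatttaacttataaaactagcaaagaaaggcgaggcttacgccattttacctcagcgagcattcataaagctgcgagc
S100a8: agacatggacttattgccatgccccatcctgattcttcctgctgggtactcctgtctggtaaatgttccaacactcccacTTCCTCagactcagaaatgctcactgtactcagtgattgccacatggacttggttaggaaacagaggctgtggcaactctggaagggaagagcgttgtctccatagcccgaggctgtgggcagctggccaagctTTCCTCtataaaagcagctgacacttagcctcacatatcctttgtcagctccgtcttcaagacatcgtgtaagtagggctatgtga
S100a9: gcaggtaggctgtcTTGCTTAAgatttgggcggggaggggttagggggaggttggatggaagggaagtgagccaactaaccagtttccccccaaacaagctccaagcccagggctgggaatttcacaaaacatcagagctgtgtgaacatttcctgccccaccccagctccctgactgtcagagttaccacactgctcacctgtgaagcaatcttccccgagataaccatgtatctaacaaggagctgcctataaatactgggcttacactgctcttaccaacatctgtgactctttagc
Ngp: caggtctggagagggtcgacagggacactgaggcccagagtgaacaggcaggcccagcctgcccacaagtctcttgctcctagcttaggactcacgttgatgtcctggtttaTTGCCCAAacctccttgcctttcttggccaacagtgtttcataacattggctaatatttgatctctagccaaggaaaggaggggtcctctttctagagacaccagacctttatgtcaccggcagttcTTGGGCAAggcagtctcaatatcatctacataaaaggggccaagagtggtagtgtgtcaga
Clec4e: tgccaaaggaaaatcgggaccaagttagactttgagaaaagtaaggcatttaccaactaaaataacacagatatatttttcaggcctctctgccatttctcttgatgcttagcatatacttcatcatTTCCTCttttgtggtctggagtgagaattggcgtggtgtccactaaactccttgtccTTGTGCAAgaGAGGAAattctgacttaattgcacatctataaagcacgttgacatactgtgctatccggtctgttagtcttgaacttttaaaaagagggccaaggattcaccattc

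The Slfn4 window held neither motif. The S100a8 window held 2 matches to the PU.1 motif and none to the C/EBP motif, and the S100a9 window held 1 match to the C/EBP motif and none to the PU.1 motif. The Ngp window held 2 matches to the C/EBP motif, and the Clec4e window held 1 match to it and 2 to the PU.1 motif. RefSeq promoter windows of this length were matched by name for 33 of the 38 genes. The C/EBP motif was present in 9 of these 33 genes (27.3%), namely Csf2, S100a9, Lcn2, Ltf, Ngp, Retnlg, Ly6g, Clec4e and Gfi1, against 10.8% of all 32851 windows. The PU.1 motif was present in 18 of the 33 genes (54.5%), against 28.3% of all windows. Some genes have more than 1 window and count if any of them holds the motif, which can raise their share against that of single windows. These shares are descriptions of letters in the windows.

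One gene, Slfn4, rose in D30 tumors, and none of the other 37 genes was called. The mean log2 level was higher in D30 tumors for 32 of the 38 (84.2%, against 45.2% of all tested genes) and lower for 6, and the median log2 fold change was 0.998, against -0.065 over all genes. Many of the 38 peaked in the same tumors, so they are not separate observations of the groups. The median deviation of the 38 genes from their group means had an SD of 0.863 between tumors, and the shift of the set was not tested. Calls were made with limma on log2(normalized count + 1) over 24560 genes with a mean of at least 1, at an adjusted p under 0.05, and all 38 genes passed this filter. limma called 2.76% of all genes, 1.4% as higher and 1.36% as lower in D30, so 1 call among 38 lies near the background. At an unadjusted p under 0.05, limma gave 9 of the 38 genes (23.7%), all of them higher in D30, against 17.3% of all genes. These were Slfn4, Csf3, Clec4e, Chil1, Wfdc21, Ly6g, Mpo, S100a8 and S100a9. Without T4 and T5, Slfn4 was the only call among the 38, while limma called 2105 of all 24560 genes, against 678 with all 10 tumors. The median log2 fold change of the 38 was then 0.51, against -0.027 over all genes, and 28 genes were higher and 10 lower.

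The 10 tumors overlapped between the groups for 36 of the 38 genes. Slfn4 and Csf3 were the 2 genes whose 5 D30 tumors all lay above all 5 CTRL tumors, a pattern held by 2.87% of all tested genes. None of the 38 lay below all CTRL tumors in every D30 tumor, which 3.32% of all genes did. The number of calls depended on the test. edgeR on the recovered reads called 1 gene of the 38 (Slfn4), against 2.61% of all genes. DESeq2 called 11 of the 37 genes to which it gave an adjusted p (29.7%), against 8.66% of all genes with one. The 10 further calls of DESeq2 were Csf3, Stfa2l1, Wfdc21, Mpo, Elane, Chil1, Cd177, Il1r2, Clec4d and Clec4e, with adjusted p values of 0.132 to 0.404 by limma and of 0.0859 to 0.165 by edgeR.

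**Figure D1:**
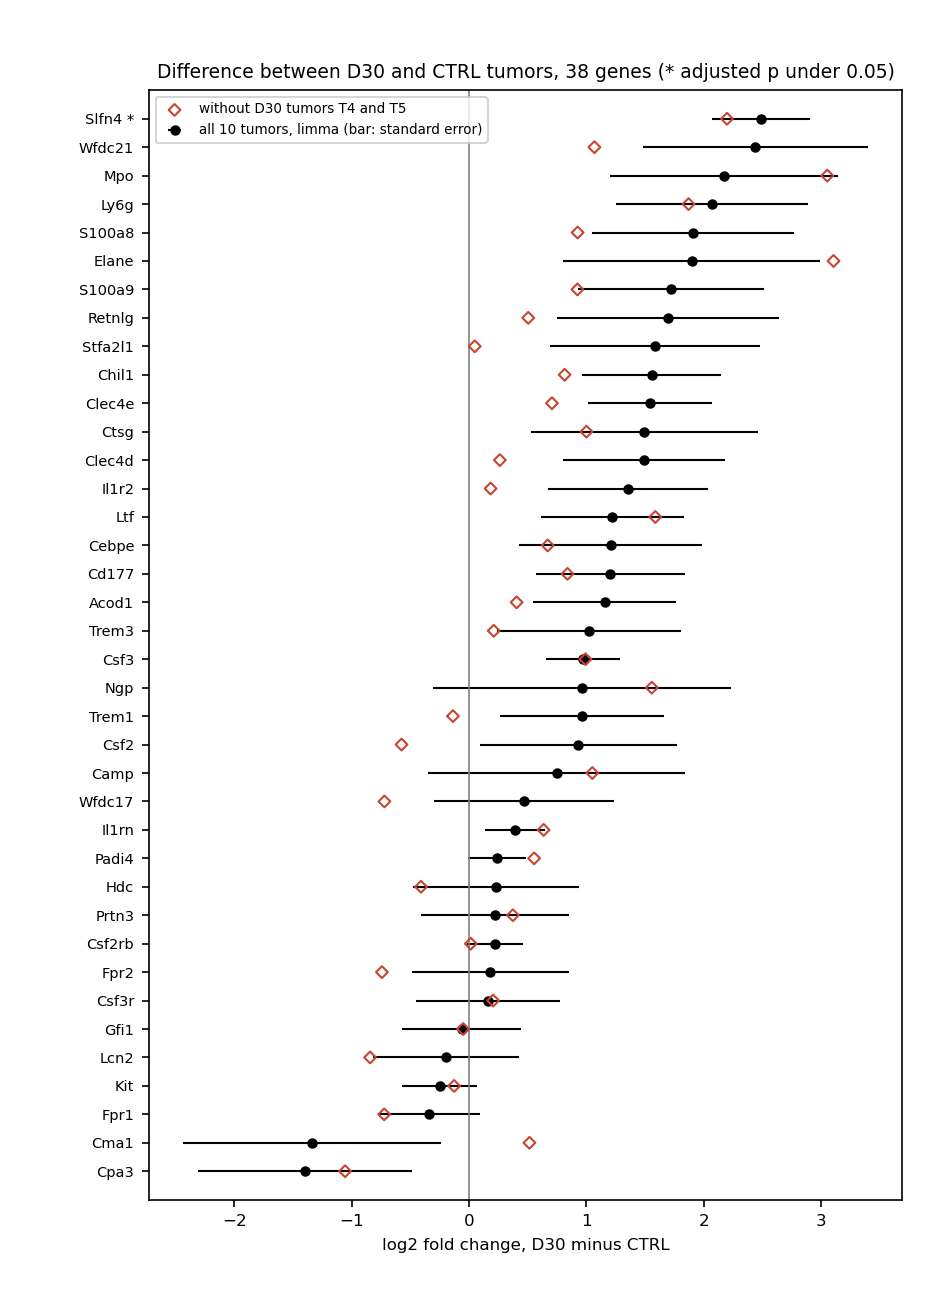
Log2 fold change between D30 and CTRL tumors (x axis, D30 minus CTRL) for the 38 genes (y axis), with 5 tumors per group. Filled circles with bars are limma estimates with their standard errors from all 10 tumors, open diamonds are estimates without T4 and T5, and the asterisk marks Slfn4, the gene with an adjusted p under 0.05.

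The genes varied widely between tumors of the same group. Within D30, the highest tumor exceeded the lowest by over 10-fold, or the lowest was at 0, for 26 of the 38 genes, and within CTRL for 13. T5 was the highest of all 10 tumors for 18 genes and T2 for 11, while T4 was highest for 4, N1 and N4 for 2 each and T1 for 1. N5 was the lowest tumor for 12 genes and T1 for 10. The D30 tumor T1 was also the lowest of its group for 23 genes. In the CTRL group, N1 was the highest tumor for 19 genes. D30 tumors thus held both the highest levels, in T2, T4 and T5, and some of the lowest, in T1. The summed level of 8 general leukocyte genes was 6781 to 13003 normalized counts in CTRL and 7217 to 16041 in D30 tumors. limma called 0 of the 8 at either an adjusted or an unadjusted p under 0.05, and 1 had a higher mean log2 level in D30.

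**Figure D2:**
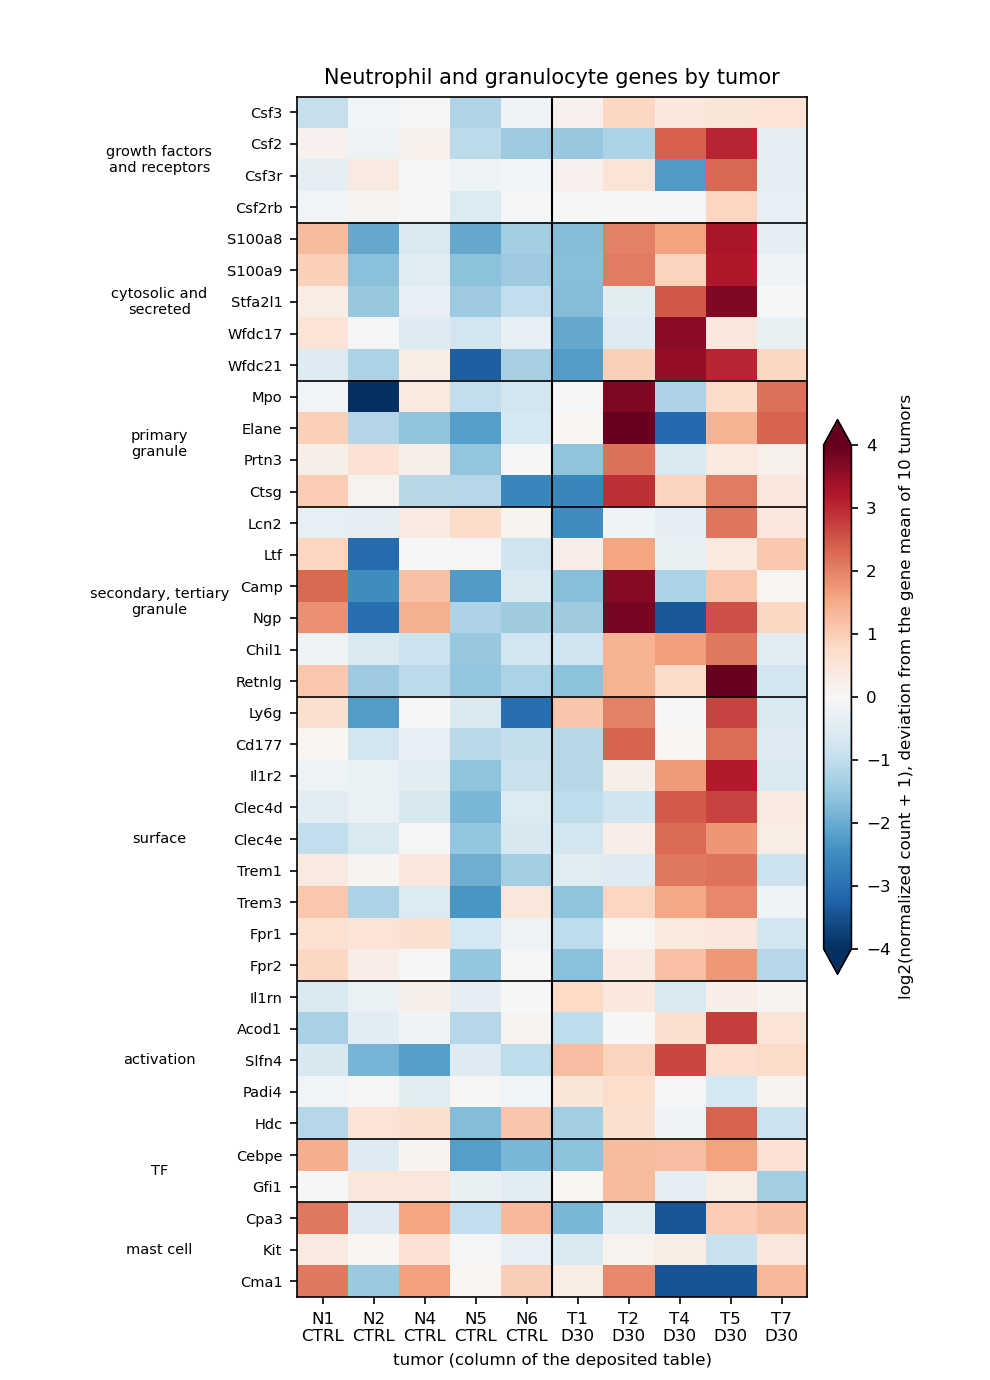
Levels of the 38 genes (rows, grouped by role) in the 10 tumors (columns, CTRL left and D30 right of the vertical line). Color gives the deviation of log2(normalized count + 1) from the mean of the 10 tumors, and the color scale ends at 4 in either direction. Primary granule genes are highest in T2, cytosolic, secreted and surface genes mostly in T4 and T5, and no row but Slfn4 and Csf3 separates the groups.

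Among the growth factors, Csf3, which encodes G-CSF (chr11:98701263-98703629, plus strand, GRCm38), was higher in every D30 tumor than in any CTRL tumor. Csf3 stood at 44.2, 79.5, 83.1, 36.3 and 76.2 normalized counts in CTRL tumors and at 95.6, 151, 115, 119 and 124 in D30 tumors. Mean levels of Csf3 were 63.9 ± 21.9 for CTRL and 121 ± 20.1 for D30 (SD, n = 5 each). The groups did not overlap, the log2 fold change was 0.97 (SE 0.32), and the two-sided exact permutation test gave the smallest p that 5 against 5 tumors allow (0.00794, unadjusted). Over all genes limma gave an adjusted p of 0.132, so that Csf3 did not pass the test, and without T4 and T5 the log2 fold change was 0.99.

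Csf2, which encodes GM-CSF, was high in 2 D30 tumors only. Csf2 was counted at 38.9, 29.6, 39.3, 15.9 and 12 in CTRL tumors and at 11.3, 13.7, 184, 292 and 26.6 in D30 tumors. T4 and T5 lay far above all others, and T1 and T2 lay among or below the lowest CTRL tumors. The log2 fold change of 0.93 (SE 0.84, adjusted p = 0.621, limma) turned to -0.58 without T4 and T5. Csf2 overlaps the gene Gm12223 on the other strand by 96 bases.

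Csf3r, the receptor of G-CSF, was at 184, 314, 228, 211 and 224 in CTRL and 273, 353, 49.7, 1197 and 190 in D30, with the highest level of all tumors in T5 and the lowest in T4. Csf2rb, the common signalling chain of the receptors for GM-CSF, IL-3 and IL-5, was steadier at 722, 861, 797, 542 and 764 in CTRL and 793, 803, 767, 1440 and 624 in D30. Their log2 fold changes of 0.16 (SE 0.61) and 0.22 (SE 0.24) were within their standard errors, and both turned to values at or below 0 under scaling to library size (-0.06 and -0.004). Reads of Csf2rb can be shared with its near-identical neighbour Csf2rb2.

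S100a8 and S100a9 encode the subunits of calprotectin, an abundant protein of the neutrophil cytosol, and lie 22.6 kb apart on chromosome 3. S100a8 was measured at 1405, 142, 385, 140 and 225 in CTRL and 176, 2337, 1789, 5561 and 450 in D30 tumors. S100a9 was measured at 1228, 197, 448, 199 and 229 in CTRL and 192, 2641, 1174, 5780 and 557 in D30 tumors. Both genes were highest in T5 and T2, N1 was the highest CTRL tumor for both, T7 lay within the range of the CTRL tumors, and T1 lay within it for S100a8 and just below it for S100a9. The mean of S100a8 was 459 ± 538 in CTRL and 2062 ± 2154 in D30 (SD, n = 5 each), and that of S100a9 was 460 ± 442 and 2069 ± 2275. The groups overlapped for both genes, and the log2 fold changes of 1.91 (SE 0.86) for S100a8 and 1.72 (SE 0.79) for S100a9 had limma adjusted p values of 0.275 and 0.287. Without T4 and T5 the log2 fold changes were 0.93 and 0.92.

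The other 3 genes of this set encode protease inhibitors and WAP-domain proteins, and all had a peak in T4 or T5. Stfa2l1, a stefin-like inhibitor of cysteine proteases, was at 20, 5.06, 12.8, 5.31 and 7.7 in CTRL and 4.11, 11.5, 96, 223 and 16 in D30. Wfdc17, a WAP-domain protein of activated phagocytes, was at 1239, 810, 608, 508 and 684 in CTRL and 209, 604, 10532, 1173 and 696 in D30. Wfdc21 was at 43.1, 25.3, 75.8, 5.31 and 24 in CTRL and 12.3, 120, 710, 515 and 110 in D30. For Wfdc17 a single tumor, T4, carried the difference, and its log2 fold change of 0.47 (adjusted p = 0.802, limma) was -0.37 without T4 and -0.72 without T4 and T5. For Wfdc21, 4 of 5 D30 tumors lay above all CTRL tumors and T1 lay among the lowest. Its log2 fold change was 2.44 (SE 0.96, adjusted p = 0.212, limma), which passed the threshold without T1 (adjusted p = 0.044). Stfa2l1 belongs to a family of close copies, so that its reads are uncertain, and its log2 fold change was 1.59 (SE 0.90) with all tumors and 0.05 without T4 and T5.

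All 4 primary granule genes were highest in T2. Mpo, myeloperoxidase, was at 13.7, 0, 20.1, 7.08 and 8.56 in CTRL and 14.4, 213, 5.78, 26.3 and 72.4 in D30. Elane, neutrophil elastase, was at 15.8, 2.89, 1.83, 0.885 and 4.28 in CTRL and 8.23, 140, 0, 21.7 and 43.7 in D30. Levels in T2 were followed by those in T7, while T4 lay at or near the bottom, with 0 reads of Elane, a count that allows up to 3 reads. Prtn3, proteinase 3, was at 73.6, 94, 74, 20.4 and 59.9 in CTRL and 19.5, 293, 40.5, 81.3 and 71.4 in D30. Ctsg, cathepsin G, was at 11.6, 5.78, 1.83, 1.77 and 0 in CTRL and 0, 45.8, 10.4, 25.2 and 7.46 in D30. Prtn3 had T2 far above the rest (log2 fold change 0.22, SE 0.63, and -0.30 without T2), and 101 reads of Ctsg were counted over all tumors, with 0 in N6 and T1. The log2 fold changes of Mpo (2.17, SE 0.97) and Elane (1.90, SE 1.10) had limma adjusted p values of 0.271 and 0.404. They were 3.05 and 3.11 without T4 and T5, and 1.51 and 1.13 without T2. With each tumor left out, Mpo ranged from 1.45 (without N2) to 2.76 and Elane from 1.13 to 2.91. Mpo overlaps Gm11505 and Prtn3 overlaps Plppr3 on the other strand. Elane and Prtn3 lie 3.1 kb apart on chromosome 10.

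**Figure D3:**
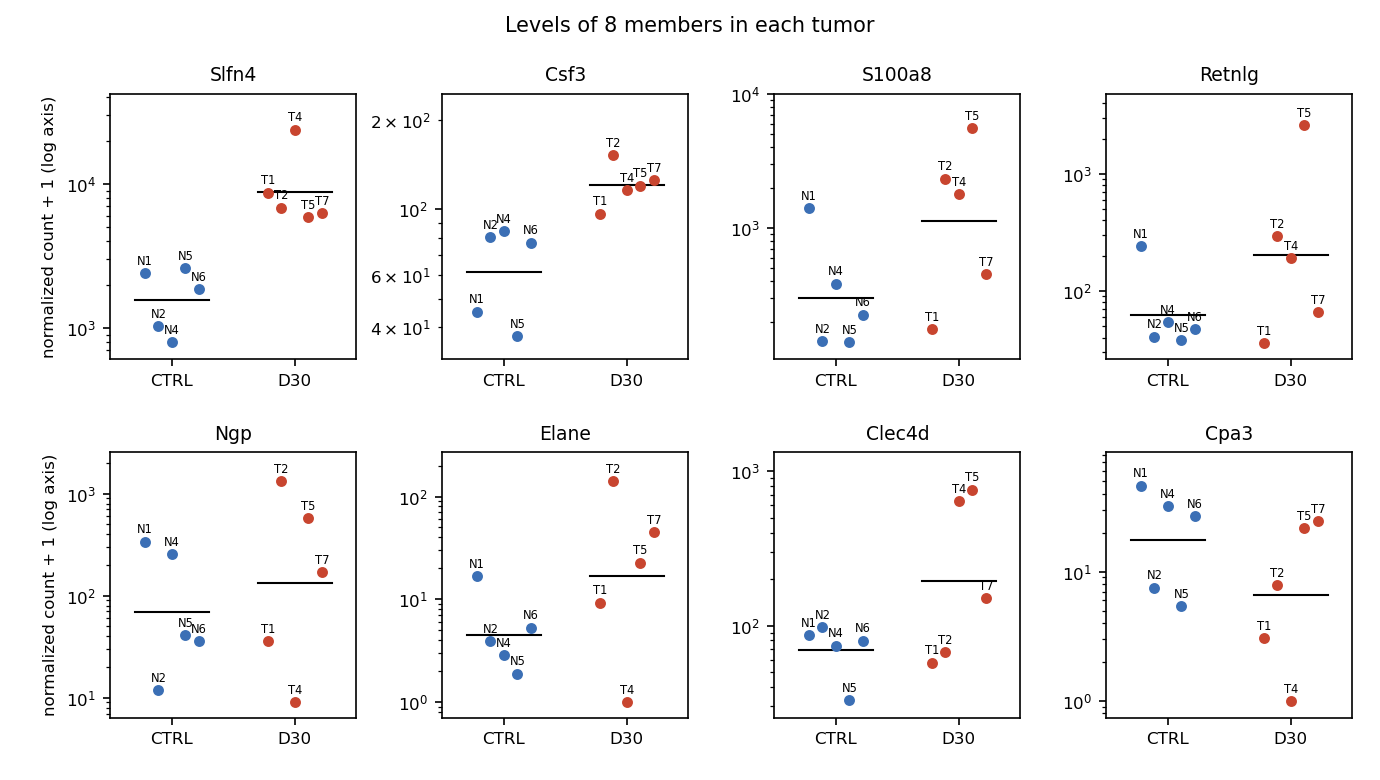
Normalized count + 1 (y axis, log scale, a separate scale in each panel) of 8 genes in the 5 CTRL tumors (blue) and the 5 D30 tumors (red), each point being 1 tumor and each line the geometric mean of a group. Slfn4 and Csf3 separate the groups, S100a8, Retnlg and Clec4d are highest in T5, and Ngp and Elane are highest in T2 and lowest of D30 in T4.

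Of the 6 genes of later granules and secreted products, Ltf, Camp and Ngp were highest in T2 and Lcn2, Chil1 and Retnlg in T5. Ltf, lactoferrin, was at 816, 52, 443, 433 and 253 in CTRL and 538, 1336, 365, 590 and 937 in D30. Camp, the cathelicidin precursor, was at 148, 4.34, 66.7, 5.31 and 18.8 in CTRL and 8.23, 377, 11.6, 63 and 30.9 in D30. Ngp, neutrophilic granule protein, was at 338, 10.8, 254, 39.8 and 35.1 in CTRL and 35, 1328, 8.1, 572 and 170 in D30. Camp and Ngp spanned more within a group than between groups, with N1 and N4 high among CTRL tumors and T4 low among D30 tumors. Their log2 fold changes were 0.75 (SE 1.09) and 0.96 (SE 1.27), and without T2 they were -0.07 and 0.14. With each tumor left out, that of Ngp ranged from 0.14 to 1.93. Ltf had a log2 fold change of 1.22 (SE 0.61, adjusted p = 0.324, limma), with N2 far below the other tumors.

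Lcn2, lipocalin that binds bacterial siderophores, was at 809, 778, 1286, 1699 and 1130 in CTRL and 180, 903, 770, 4520 and 1381 in D30. Its lowest level was in T1 and its highest in T5, and the log2 fold change was -0.20 (SE 0.63), with a sign that turned in edgeR and DESeq2. Chil1, a chitinase-like secreted protein, was at 20, 14.5, 11.9, 7.08 and 12.8 in CTRL and 12.3, 59.6, 72.9, 101 and 16 in D30. Retnlg, a resistin-like protein of neutrophils, was at 239, 39.8, 53, 37.2 and 46.2 in CTRL and 35, 292, 189, 2602 and 65 in D30. In both genes T2, T4 and T5 formed the upper part of D30, while T7 lay within the range of CTRL tumors and T1 within it for Chil1 and just below it for Retnlg. The log2 fold change was 1.56 (SE 0.59, adjusted p = 0.195, limma) for Chil1 and 1.70 (SE 0.95, adjusted p = 0.387, limma) for Retnlg, and without T4 and T5 they were 0.81 and 0.50.

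Ly6g, the surface protein by which mouse neutrophils are usually identified, was among the least expressed of the 38 genes, with 124 reads over all tumors. It was at 11.6, 0.723, 7.31, 4.43 and 0 in CTRL and 16.5, 32.1, 6.94, 51.5 and 4.26 in D30. Cd177, a surface glycoprotein of neutrophils, was at 71.5, 40.5, 53.9, 31.9 and 35.1 in CTRL and 30.8, 353, 71.7, 323 and 46.9 in D30. Both were high in T2 and T5. Their log2 fold changes of 2.07 (SE 0.82) and 1.20 (SE 0.64) had limma adjusted p values of 0.213 and 0.358. Ly6g belongs to a family of similar genes, and its assigned reads are uncertain.

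The cytokine and lectin receptors were high in T4 and T5. Il1r2, the decoy receptor of interleukin-1, was at 145, 137, 122, 54 and 89 in CTRL and 76.1, 195, 537, 1514 and 109 in D30. Clec4d and Clec4e are glycolipid receptors that lie 6.5 kb apart on chromosome 6, and Clec4d was at 85.2, 96.9, 73.1, 31.9 and 78.7 in CTRL and 56.6, 66.4, 640, 758 and 149 in D30. Clec4e was at 41, 53.5, 79.5, 27.4 and 53 in CTRL and 49.4, 98.5, 405, 284 and 101 in D30. Of these, Clec4e came closest to separating the groups, with 4 of 5 D30 tumors above all CTRL tumors and only T1 within their range. Its log2 fold change was 1.54 (SE 0.53, adjusted p = 0.153, limma), those of Il1r2 and Clec4d were 1.36 (SE 0.68) and 1.49 (SE 0.69), and without T4 and T5 they came to 0.71, 0.18 and 0.26.

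Trem1 and Trem3, activating receptors that lie 0.9 kb apart on chromosome 17, had the same 2 tumors on top. Trem1 was at 106, 88.2, 111, 20.4 and 31.7 in CTRL and 58.6, 57.3, 357, 372 and 44.7 in D30. Trem3 was at 18.9, 2.89, 5.48, 0.885 and 12 in CTRL and 2.06, 16, 26.6, 34.3 and 7.46 in D30. Beyond T4 and T5, Trem1 lay within the range of CTRL tumors in the other D30 tumors, and its log2 fold change of 0.96 (SE 0.70) became -0.14 without both. That of Trem3 was 1.03 (SE 0.78, adjusted p = 0.543, limma). The formyl peptide receptors Fpr1 and Fpr2 sense bacterial and mitochondrial peptides, and their differences were within the standard errors. Fpr1 was at 49.4, 46.3, 51.2, 19.5 and 28.2 in CTRL and 15.4, 34.4, 42.8, 43.5 and 19.2 in D30, with a log2 fold change of -0.34 (SE 0.43). Fpr2 was at 69.4, 47, 39.3, 12.4 and 37.6 in CTRL and 11.3, 48.1, 90.2, 132 and 17 in D30, with a log2 fold change of 0.18 (SE 0.67) that turned to -0.74 without T4 and T5. The annotation of Fpr2 overlaps that of Fpr3 by 48 bases.

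Slfn4, a Schlafen family gene of monocytes, macrophages and granulocytes that responds to type I interferon, was the one called gene (chr11:83175186-83190216, plus strand, protein-coding, GRCm38). It was at 2398, 1033, 801, 2597 and 1858 in CTRL and 8715, 6851, 23844, 5899 and 6292 in D30 tumors. Every D30 tumor lay above every CTRL tumor, and T4 stood highest. The mean was 1738 ± 800 in CTRL and 10320 ± 7637 in D30 (SD, n = 5 each), and the log2 fold change was 2.48 (SE 0.42, 5.6-fold, adjusted p = 0.00745, limma). edgeR gave an adjusted p of 0.011 and DESeq2 of 1.32e-06. The rise held without T4 and T5 (2.20) and without each tumor in turn (2.13 to 2.67, limma adjusted p = 0.00267 to 0.0306). Slfn4 lies in a cluster of similar genes on chromosome 11, and reads can be shared between them. Of the 7 other family members tested, which were looked at after the values of Slfn4 were seen, none was called, with limma adjusted p values of 0.333 to 0.808. Slfn2 was also highest in T4, at 12506 normalized counts.

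The other genes of activation were mostly steady or led by T5. Il1rn, the antagonist of the interleukin-1 receptor, was at 1760, 2204, 3123, 2054 and 2576 in CTRL and 4571, 3522, 1716, 3190 and 2824 in D30. Padi4, which citrullinates histones in neutrophil extracellular traps, was at 1369, 1531, 1082, 1536 and 1391 in CTRL and 2074, 2411, 1452, 920 and 1633 in D30. These belong to the 6 genes whose 10 tumors spanned less than 5-fold, together with Csf3, Csf2rb, Fpr1 and Kit. Their log2 fold changes were 0.39 (SE 0.26) and 0.23 (SE 0.25). In T5, where 18 of the 38 genes peaked, Padi4 was at its lowest.

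Acod1, which makes itaconate in activated phagocytes, was at 12.6, 23.9, 29.2, 14.2 and 35.1 in CTRL and 15.4, 32.1, 50.9, 226 and 46.9 in D30. Hdc, the histamine-forming enzyme of mast cells, basophils and immature myeloid cells, was at 42.1, 136, 146, 27.4 and 203 in CTRL and 36, 145, 82.1, 478 and 51.1 in D30. Both were highest in T5, with log2 fold changes of 1.15 (SE 0.61, adjusted p = 0.358, limma) and 0.23 (SE 0.71, adjusted p = 0.902, limma). Without T5 they were 0.61 and -0.32, and without T4 and T5 0.41 and -0.41. Of the transcription factors, Cebpe, which directs the step to secondary granules, was at 33.7, 7.95, 12.8, 1.77 and 2.57 in CTRL and 3.08, 29.8, 28.9, 37.8 and 18.1 in D30, and Gfi1, a repressor needed for neutrophil maturation, was at 15.8, 21.7, 21.9, 12.4 and 11.1 in CTRL and 16.5, 38.9, 11.6, 19.5 and 5.33 in D30. Cebpe had T5, T2 and T4 among its 4 highest tumors with N1, and neither log2 fold change (1.21, SE 0.78, and -0.06, SE 0.51) passed the test.

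The 3 mast cell genes had lower mean log2 levels in D30, and limma called 0 of them, also at an unadjusted p under 0.05, as did edgeR and DESeq2 after adjustment. Cpa3, mast cell carboxypeptidase, was at 45.2, 6.51, 31.1, 4.43 and 25.7 in CTRL and 2.06, 6.87, 0, 20.6 and 23.4 in D30. Cma1, mast cell chymase, was at 46.3, 2.89, 32.9, 10.6 and 20.5 in CTRL and 12.3, 40.1, 0, 0 and 26.6 in D30. Both were highest in N1, and no read of Cma1 was found in T4 and T5 and none of Cpa3 in T4, each of which allows up to 3 reads. Kit, the stem cell factor receptor, was at 215, 177, 254, 161 and 133 in CTRL and 110, 186, 205, 89.3 and 231 in D30. Log2 fold changes were -1.40 (SE 0.91) for Cpa3, -1.34 (SE 1.10) for Cma1 and -0.25 (SE 0.32) for Kit. Without T4, that of Cpa3 was -0.72 and that of Cma1 -0.64, and without T5 that of Kit was -0.06. Without both T4 and T5, in which it was not detected, Cma1 turned to 0.51. Of 16 further mast cell and basophil genes tested, 6 had a higher and 10 a lower mean log2 level in D30, and limma called 1 (Kitl, lower). At an unadjusted p under 0.05, limma gave 5 of the 16, 1 as higher and 4 as lower, against 17.3% of all genes. Mcpt1, Mcpt2 and Mcpt4 were among those higher (log2 fold change 0.99, 0.88 and 0.94, limma adjusted p = 0.132, 0.326 and 0.47). Hpgds, Ms4a2 and Mcpt8 were among those lower (log2 fold change -1.35, -2.20 and -0.65, limma adjusted p = 0.123, 0.155 and 0.2).

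Per kilobase of annotated exon, the CTRL mean was highest for Wfdc17 at 1440 normalized counts, followed by S100a9 at 882, S100a8 at 662, Slfn4 at 438 and Lcn2 at 435. The D30 mean per kilobase was 4960 for Wfdc17, 3960 for S100a9, 2970 for S100a8, 2600 for Slfn4 and 1070 for Retnlg. Mpo, at 2.89 in CTRL, and Ctsg, at 4.06, were at the other end of this scale.

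Relations between 8 gene pairs across the 10 tumors were computed on log2 levels, with permutation p values adjusted over the 8 pairs. S100a8 and S100a9 varied together (Pearson r = 0.988, adjusted permutation p = 8e-05; Spearman rho = 0.939, adjusted permutation p = 0.00208). The raw p of 1e-05 is the smallest that 100000 resamples can give. The relation was as close without T2 and T5 (r = 0.986) and between deviations from the group means (r = 0.983). Ngp and Camp also varied together (r = 0.906, adjusted permutation p = 0.00168; rho = 0.842, adjusted permutation p = 0.0136), and r was 0.911 without T2 and T4 and 0.903 between deviations from the group means. Clec4d and Clec4e had r = 0.927 (adjusted permutation p = 0.0028) and rho = 0.733 (adjusted permutation p = 0.0521). Here r fell to 0.662 without T4 and T5, which stand apart from the other tumors, and the relation rests in part on them.

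Like Clec4d with Clec4e, none of the other 5 pairs had an adjusted permutation p under 0.05 on both scales. Csf2 and S100a8 had r = 0.694 (adjusted permutation p = 0.0463) and rho = 0.515 (adjusted permutation p = 0.176), and r was 0.205 without T4 and T5, so that this relation rests on those tumors. Csf3 and S100a8 had r = 0.465 and rho = 0.673 (adjusted permutation p = 0.237 and 0.0616), and r was 0.087 between deviations from the group means. S100a8 and Csf3r had r = 0.215 and rho = 0.115 (adjusted permutation p = 0.642 and 0.759), and r was -0.779 without T2 and T5, in which both genes were high. Cpa3 had r = 0.531 and rho = 0.681 with Cma1 (adjusted permutation p = 0.183 and 0.0616), with r = 0.271 without T1 and T4. Cpa3 and Kit had r = 0.126 and rho = 0.406 (adjusted permutation p = 0.73 and 0.28), with r = 0.16 without the same tumors.

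**Figure D4:**
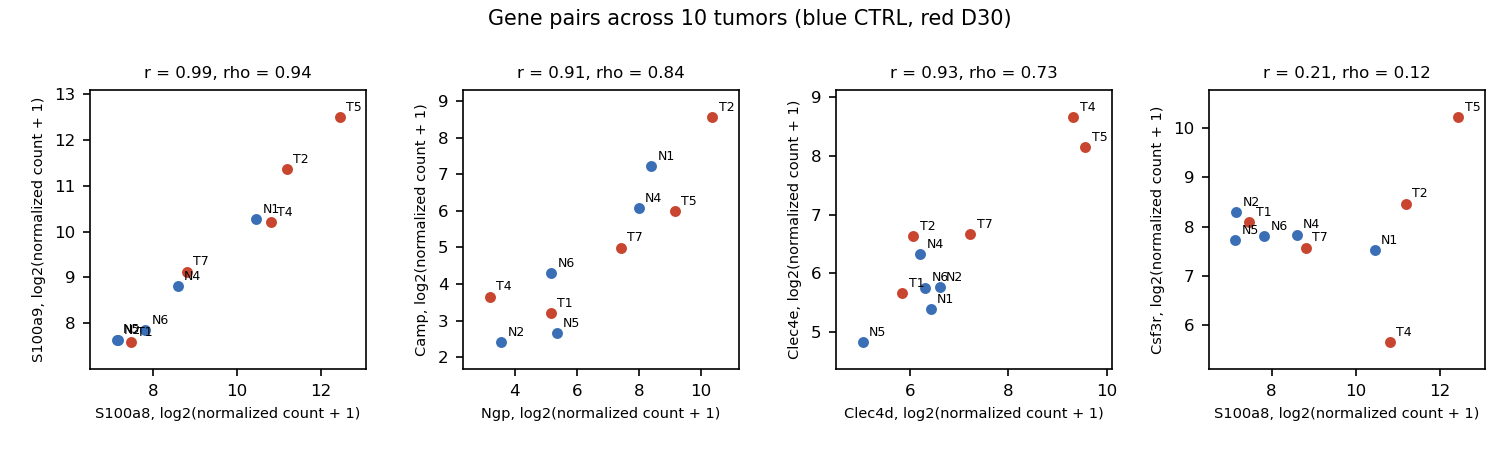
Log2(normalized count + 1) of 4 gene pairs in the 10 tumors, with CTRL in blue and D30 in red and Pearson r and Spearman rho above each panel. S100a8 with S100a9 and Ngp with Camp lie near a line, Clec4d with Clec4e has T4 and T5 apart from the rest, and S100a8 with Csf3r has T4 far below the other tumors.

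Of 97 further genes of granulocyte recruitment, growth, maturation and effector function, 94 were tested, and 5 (5.32%) were called by limma, 3 as higher and 2 as lower in D30, against 2.76% of all tested genes. Pglyrp1, a peptidoglycan-binding protein of neutrophil granules, was at 572, 161, 423, 357 and 290 in CTRL and 1014, 3433, 2949, 1961 and 3152 in D30 (log2 fold change 2.78, SE 0.38, adjusted p = 0.00261). The inflammatory cytokines Tnf and Il1a had log2 fold changes of 1.54 (SE 0.33, adjusted p = 0.0256) and 1.46 (SE 0.34, adjusted p = 0.0352). Kitl, the ligand of Kit, fell from 5680 ± 1243 to 2394 ± 752 normalized counts (SD, n = 5 each, log2 fold change -1.30, SE 0.27, limma adjusted p = 0.0228), and Csf1r, the receptor of macrophage growth factor, fell from 2686 ± 485 to 1346 ± 459 (log2 fold change -1.06, SE 0.26, limma adjusted p = 0.0449). In all 5 genes the groups did not overlap, as in 6 of the 94 genes with every D30 tumor higher and in 3 with every D30 tumor lower, against 2.87% and 3.32% of all genes. Pglyrp1 was called without any one tumor (limma adjusted p = 0.0021 to 0.0114). For the others, the call depended on single tumors while the log2 fold change stayed near its value, at 1.40 to 1.70 for Tnf, 1.26 to 1.64 for Il1a, -1.40 to -1.04 for Kitl and -1.20 to -0.84 for Csf1r. Over all genes, limma called 270 to 1530 genes with 1 tumor left out, against 678 with all 10. The call of Tnf was lost without N2, N5, N6, T1 or T2 (adjusted p up to 0.09), that of Kitl without N1, N2, N5, N6 or T7 (up to 0.0726), that of Il1a without any tumor other than N4 and T4 (up to 0.116), and that of Csf1r without any tumor other than T2 and T4 (up to 0.146). In edgeR, Csf1r had an adjusted p of 0.0583.

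The next 5 genes by p value did not pass the limma test. The collagenase Mmp8 of neutrophil granules was at 60, 52, 44.8, 39 and 50.5 in CTRL and 67.9, 123, 244, 989 and 226 in D30, without overlap (log2 fold change 2.12, adjusted p = 0.0635). Cd274, which encodes PD-L1, had a log2 fold change of 1.27 (adjusted p = 0.0653), the stefin gene BC100530 of 2.33 (adjusted p = 0.0754, 46 reads in all), Il23a of 1.68 (adjusted p = 0.0764) and Hpgds, the prostaglandin D synthase of mast cells and macrophages, of -1.35 (adjusted p = 0.123). edgeR called Mmp8 (adjusted p = 0.0315) and Cd274 (adjusted p = 0.0486). DESeq2 called Mmp8, Cd274 and Il23a (adjusted p = 7.27e-05, 0.00289 and 0.0021). Neither called BC100530 or Hpgds. By group, limma called none of 12 chemokine and chemoattractant receptor genes, 8 transcription factors, 6 subunits of the phagocyte oxidase and 8 eosinophil genes. At an unadjusted p under 0.05, limma gave 2, 0, 0 and 2 of them, against 17.3% of all genes. The chemokine gene Cxcl2 was at 33.7, 56.4, 116, 37.2 and 66.7 in CTRL and 70.9, 112, 1411, 8064 and 165 in D30. Its log2 fold change was 2.93 (limma adjusted p = 0.172), and edgeR and DESeq2 called it (adjusted p = 0.0481 and 0.000636). DESeq2 also called Cxcl3 (adjusted p = 0.00214, against 0.305 by limma).

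Levels of markers of other cell types differed beside these values. The counts at an unadjusted p under 0.05 given for them stand against 17.3% of all tested genes (limma). Of 9 macrophage genes, 8 had a lower mean log2 level in D30 and 1 was called (Csf1r), with summed levels of 52323 to 80283 normalized counts in CTRL and 19082 to 58344 in D30. Of 6 monocyte genes, 3 had a higher and 3 a lower mean log2 level, with a median log2 fold change of -0.20. limma called 0 of these 6 after adjustment and 3 at an unadjusted p under 0.05. The sums of the monocyte genes (CTRL, 12434 to 27239, and D30, 21066 to 84225) were mostly Plac8, whose mean was 13700 ± 4979 in CTRL and 30360 ± 24240 in D30. Ccr2, in contrast, was at 830, 628, 579, 189 and 495 in CTRL and 234, 268, 372, 25.2 and 144 in D30 (log2 fold change -1.66, adjusted p = 0.194, limma). Of 6 endothelial genes, 5 had a lower mean in D30, and Cdh5 was called (log2 fold change -1.45, SE 0.26, adjusted p = 0.0117, limma), and the sums did not overlap (CTRL, 10987 to 18676, and D30, 5662 to 9672). The 7 T cell genes all had a lower mean, and summed to 239 to 532 in CTRL tumors and to 93 to 269 in D30 tumors, and so did the 7 fibroblast genes, with 48908 to 89549 in CTRL and 11446 to 74019 in D30. limma called 0 of either after adjustment, and 2 and 5 at an unadjusted p under 0.05.

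Of 6 genes of ductal and tumor epithelium, 5 had a higher mean and 1 a lower mean in D30, and limma called 0 after adjustment and all 6 at an unadjusted p under 0.05. The sums, which keratins dominate, were 209890 to 335472 in CTRL and 341271 to 475520 in D30. Epcam was the one lower gene, at 191, 88.9, 43.9, 15.9 and 85.6 in CTRL and 6.17, 0, 62.5, 3.43 and 8.52 in D30 (log2 fold change -3.17, SE 0.94, adjusted p = 0.099, limma). Acinar genes were highest in N6 (59772) and N2 (28119), against at most 6012 in the other tumors. The part of these cell types, of the erythroid RNA in T5 and of Plac8 in T4 in the levels of the 38 genes was not tested.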

How the data were processed

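The authors prepared strand-specific libraries from total RNA of each tumor and sequenced them in pairs. Per the labels, the submitters' processing notes name CASAVA, FastQC, Trim Galore, STAR 2.7.0e, DESeq2 and the build GRCm39, whereas the study's methods name hg38 and RSEM. The counting settings are not given in the sources used here. The values the authors deposited are a normalized signal, in the form of counts divided by 1 size factor per tumor. Within a tolerance of 0.01, 100% of these values were whole multiples of 1 read, and the recovered reads served edgeR and DESeq2. N columns were assigned to CTRL by their letter and T columns to D30 as the only other group.

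Gene names and positions were those of GENCODE M21 (GRCm38), with 94.1% of the identifiers matched after their version was dropped, and promoter windows from RefSeq (GRCm38.p6). Differences were tested with limma 3.58.1 (R 4.3.3, mean-variance trend) on log2(normalized count + 1) in 24560 genes with a mean of at least 1, with Benjamini-Hochberg adjustment over all of them. On this scale changes of low genes are understated. Exact permutation tests were two-sided. Alternatives were other pseudocounts, filters and scalings, edgeR 4.0.16, DESeq2 1.42.0, limma-voom, each tumor left out, and T4 and T5 left out. The fits were tested on simulated data. Limits for a count of 0 (3 reads) cover counting error only.

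The 38 genes and the other lists were chosen with earlier results of these data known. Each of the 38 averages 10 normalized counts or more and is given with its values in every tumor. Of the 97 further genes, those called by limma and the next 5 by p were named. Cxcl2, Cxcl3, C5ar1, Mcpt1, Mcpt2, Mcpt4, Mcpt8 and Ms4a2 were added after the values were seen.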

Additional observations from a re-analysis of the deposited data

Results flagged for a closer look

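Within each group of 5 tumors, the gap between an extreme tumor and its nearest neighbour on the log2 scale was divided by the range of the group, for 76 combinations of gene and group. In 3 of them 1 tumor lay far from the others. Chance alone flags about 5% of such groups, or 3.8 of 76, so the number of flags is no more than chance gives. Retnlg was high in CTRL tumor N1 at 239 normalized counts (gap over range 0.811). Clec4d was low in CTRL tumor N5 at 31.9 (0.745). Slfn4 was high in D30 tumor T4 at 23844 (0.721), and its call held without T4.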

How the results depend on the processing

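No paired analysis was possible because the columns of the table could not be matched to the replicate numbers of the labels, so the alternative with a replicate block was not run. The number of the 38 genes called was 1 under every alternative but DESeq2 (11 called, all 11 as higher) and the loss of T1, with 1 to 2 calls when each tumor was left out. The median log2 fold change of the 38 genes was 0.64 (without T5) to 1.43 (without T1) with each tumor left out and 0.51 without T4 and T5. Of the 97 further genes, 13 were called by DESeq2, 7 by edgeR, 10 without T4 and T5, and 1 to 8 with each tumor left out. The number called over all genes also changed with the setting. DESeq2 called 8.66% and edgeR 2.61% of all genes. Over all 24560 genes, limma called 2105 without T4 and T5 and 270 to 1530 with each tumor left out, against 678 with all 10. Scaling to library size moved the median of all genes to -0.27.

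Some log2 fold changes changed sign, none of them called. Under scaling to library size these were Csf2rb (-0.004), Csf3r (-0.058) and Fpr2 (-0.038). In edgeR and DESeq2 they were Gfi1 (0.13 and 0.14) and Lcn2 (0.42 and 0.44). Without T4 and T5 they were Cma1 (0.51), Csf2 (-0.58), Fpr2 (-0.74), Hdc (-0.41), Trem1 (-0.14) and Wfdc17 (-0.72). With each tumor left out, the range was -0.074 to 1.42 for Camp, -0.39 to 0.75 for Csf3r, -0.23 to 0.62 for Fpr2, -0.39 to 0.28 for Gfi1, -0.32 to 0.60 for Hdc, -0.76 to 0.40 for Lcn2, -0.30 to 0.66 for Prtn3 and -0.37 to 1.04 for Wfdc17. Fewer tumors enter these fits, and for the other settings the cause was not tested. Low reads limit Ctsg, Trem3, Ly6g, Cebpe, Cpa3, Gfi1 and Cma1, each with fewer than 200 reads over 10 tumors.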
